A study of Homo sapiens with 16 samples.

Results

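The transcriptional response to a RECK construct was compared between a pair of related invasive breast cancer lines, to find genes that moved the same way in both. The comparison used 8 of the 16 arrays of the series, all Affymetrix U133 2.0 arrays: MDAMB231 and LM24175 cells with the RECK construct, 2 arrays each, against MDAMB231 and LM24175 cells with the empty vector, 2 arrays each. Per the labels, the construct expresses RECK constitutively, and both it and the vector were brought in by stable infection. Whether a group is a clone or a pool is not stated. The labels do not say either whether the 2 arrays of a group are separate cultures, so the p-values rest on a spread that may be technical. The remaining 8 arrays are of Hs343T and Hs606T cells with siRNAs and enter only where named. Of 22277 probe sets, 22215 that were not array controls were tested, and 19064 of these carry exactly 1 gene symbol (11963 genes).

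RECK is a glycoprotein tethered to the outside of the cell membrane that restrains matrix metalloproteinases, the enzymes with which cells cut collagen and other matrix proteins. It also takes part in WNT7 signalling in the vessels of the brain. MDAMB231 (usually written MDA-MB-231) is a mesenchymal, hormone receptor negative human breast cancer line, and LM24175 is a derivative of it that was selected for growth in the lung. They therefore share their origin but no array. The study's title names metastasis, STAT3 and a switch towards new vessels, so members of these pathways were listed beside the largest differences.

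All values are log2 units, so a difference of 1 is a change by a factor of 2, and each difference is RECK construct minus empty vector. Array medians lay between 6.50 and 6.57, and arrays of a group correlated at 0.994 to 0.998 across probe sets. The first MDAMB231 empty vector array and the first LM24175 RECK array deviated from their replicates in the same direction (r = 0.449 across probe sets), against -0.037 to 0.044 for the other 5 pairs of same-numbered arrays. With 2 arrays in a group, this r holds equally for their second arrays, so it cannot tell which array of a group is off. One of the 2 first arrays is in the vector arm and the other in the RECK arm. Counts, some gene lists and a few single genes are therefore also given without both of them (below, the arrays that deviate together). Leaving out both second arrays instead was not tried. Read roughly, since probe sets differ in brightness, 10 of 10 markers of mesenchymal breast lines averaged above the median gene over the 8 arrays (VIM, LGALS1, CD44 and AXL highest), though SPARC read only 4.03 to 4.89 in MDAMB231. So did 7 of 14 luminal and 1 of 5 basal epithelial markers, and none of 10 fibroblast, 8 endothelial and 15 leukocyte markers.

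RECK itself was not higher with the construct. Its main probe set read 7.78 and 7.80 in MDAMB231 with RECK, against 7.74 and 7.78 with vector. In LM24175 it read 7.39 and 7.76 with RECK, against 7.96 and 8.04 with vector. The groups were thus close in MDAMB231, and in LM24175 both RECK arrays were the lower ones. The difference over both lines was -0.20 (95% interval -0.47 to 0.07, adjusted p = 0.763), and -0.076 without the first LM24175 RECK array. The other RECK probe sets differed by 0.01 (adjusted p = 0.98) and by -0.09 (adjusted p = 0.884), and the last of these lay below the lower quartile of every array. The position of these probe sets against the construct's sequence is unknown, and they may therefore be no check of it.

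No probe set passed as a shared response. With cell line as a block, the 8-array fit puts any difference between the lines into its error, and 0 of 22215 probe sets (0%) passed at an adjusted p under 0.05. The smallest adjusted p was 0.0779, for CD96, and 1605 probe sets (7.22%) had an unadjusted p under 0.05. Differences of single genes over both lines are therefore given as values that did not pass, unless another fit is named. A fit of 4 group means, which keeps the difference between the lines out of the error, passed 16 probe sets, 15 of which moved the same way in both lines. With all 16 arrays as 8 group means, 337 passed (1.52%), 222 higher (0.999%) and 115 lower (0.518%). Of those 337, 56 had opposite signs in the lines, since a large response in one line is enough to move the mean.

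The lines did not share a general direction. Of the probe sets tested, 10342 (46.6%) had the same sign in both lines, and the responses of the lines correlated at r = -0.13 across probe sets. Without both arrays that deviate together the share was 50.8% and r was 0.017. Both RECK arrays lay beyond both vector arrays, in the same direction in each line, for 1638 probe sets (7.37%), 924 higher (4.16%) and 714 lower (3.21%). They did so in opposite directions in the lines for 2242 (10.1%). Changes of at least 1.5-fold in both lines were rarer still: 14 probe sets were higher in both, 5 were lower in both and 53 went opposite ways.

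**Figure D1:**
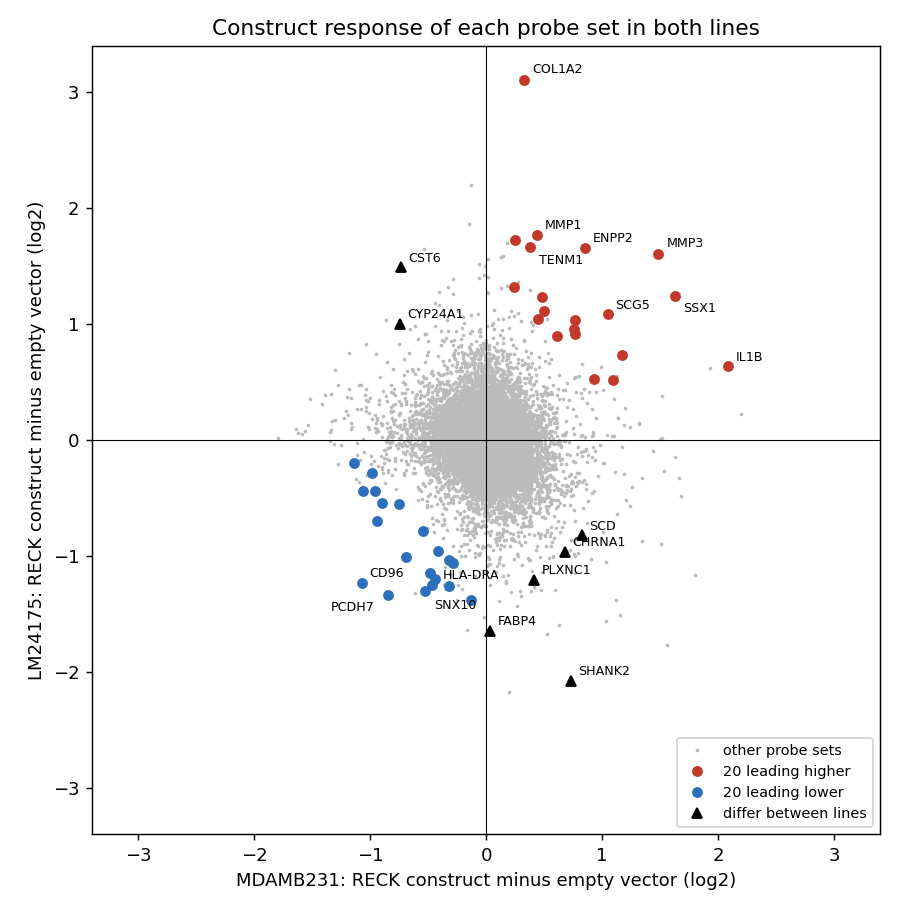
Each grey point is 1 of the 22215 probe sets, placed by its RECK minus vector difference (log2) in MDAMB231 on the x axis and in LM24175 on the y axis, each from 2 against 2 arrays. Red and blue circles are the 20 leading higher and 20 leading lower genes, triangles are genes whose responses differed between the lines. The cloud shows no rise along the diagonal (r = -0.13). The leading genes lie at the upper right and lower left because they were chosen for the same direction in both lines. Some of them lie near an axis, such as KCNJ8 at -0.13 in MDAMB231 and -1.38 in LM24175.

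The genes described next are the 20 with the largest positive and the 20 with the largest negative difference among genes whose arrays were separated in this way. A gene with several probe sets is given by the separated probe set with the largest absolute difference. On its brightest probe set the difference can be smaller. The gene's other probe sets need not be separated: BMP2, WNT5A, HLA-DRA and LGR5, for instance, were separated on 1 of 2. None of the 40 passed in the blocked fit (adjusted p 0.0976 to 0.622 for the higher ones, 0.0779 to 0.747 for the lower ones). Of the 20 higher genes, 7 passed with 4 group means and 16 with 16 arrays. Of the 20 lower genes, 2 and 13 did. Over all probe sets tested, 16 and 337 (1.52%) passed in these fits. The genes were chosen for size and separation on the same construct and vector arrays, so passing was partly settled by the choice. These counts are therefore no separate support for the genes. In the 16-array fit, 7 probe sets passed in each line separately in the same direction, and the 4 of them with exactly 1 listed gene symbol were SSX1, ENPP2, PTPRN2 and CD96. Another 9 passed in each line in opposite directions. The 7 are 13.2% of the 53 that passed in MDAMB231 (0.239%) and 0.714% of the 980 that passed in LM24175 (4.41%).

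MMP3, MMP1, COL1A2 and COL15A1, which encode matrix proteases and collagen chains, were among the higher genes. MMP3, or stromelysin-1, which cuts matrix proteins and activates other metalloproteinases, read 8.81 and 8.87 in MDAMB231 with RECK, against 6.74 and 7.98 with vector. In LM24175 it read 8.35 and 8.42 with RECK, against 6.70 and 6.86 with vector. All 4 RECK arrays of MMP3 were above all 4 vector arrays. The adjusted p for MMP3 was 0.268, against 0.0854 with 4 group means and 0.00254 with 16 arrays. The difference was 2.91-fold (log2 1.54, 95% interval 1.03 to 2.05). It was 1.61 in LM24175 and 1.48 in MDAMB231, a difference between the lines with an interval of -0.96 to 1.21. Without both arrays that deviate together, the MMP3 difference over both lines was 1.25. In RNA of whole cultures, a change in the share of cells with a transcript and one in its amount per cell cannot be told apart. MMP1, the interstitial collagenase, read 13.75 and 13.80 in MDAMB231 with RECK, against 13.13 and 13.54 with vector. In LM24175 MMP1 read 13.31 and 13.75 with RECK, against 11.75 and 11.77 with vector. The vector arrays of the lines differed far more for MMP1 than the RECK arrays did, and the response was 1.77 in LM24175 against 0.44 in MDAMB231 (difference 1.33, 95% interval 0.75 to 1.91; adjusted p = 0.104).

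COL1A2, a chain of type I collagen, had the largest mean difference, but almost all of it came from LM24175. It read 6.67 and 6.83 in LM24175 with RECK, against 3.57 and 3.71 with vector. In MDAMB231 it read 3.47 and 3.85 with RECK, against 3.34 and 3.32 with vector, and all 4 of these lay below the lower quartile of their array, as did both LM24175 vector arrays. The response differed between the lines by 2.78 (95% interval 2.32 to 3.25; adjusted p = 0.0175). COL1A2 was separated on this probe set alone. Its brighter probe set read 4.21 and 4.41 in MDAMB231 with RECK, against 5.07 and 3.81 with vector, and 7.12 and 7.33 in LM24175 with RECK, against 4.80 and 5.25 with vector. On that probe set the difference over both lines was 1.04 instead of 1.72, and the response did not pass as different between the lines (adjusted p = 0.127). COL15A1, a basement membrane collagen, had the same layout, with 5.88 and 6.01 in LM24175 with RECK, against 4.59 and 4.65 with vector. Its MDAMB231 values, 4.22 and 4.35 with RECK and 3.94 and 4.15 with vector, were all below the lower quartile. COL1A2 is also a fibroblast marker. The mean level of the 10 fibroblast markers was 4.42 to 5.57 on RECK arrays, against 4.37 to 4.95 on vector arrays, and its part in the result was not tested.

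IL1B, the inflammatory cytokine interleukin-1 beta, read 11.98 and 11.97 in MDAMB231 with RECK, against 9.55 and 10.22 with vector. In LM24175 it read 11.88 and 13.07 with RECK, against 11.80 and 11.87 with vector. The LM24175 arrays were thus separated only narrowly, by the first RECK array, which is one of those that deviate together, and IL1B's other probe set was not separated in both lines. INHBA, the subunit of activin A, and WNT5A, a noncanonical WNT ligand, shared this layout. INHBA read 7.76 and 8.95 in LM24175 with RECK, against 7.63 and 7.61 with vector, and WNT5A read 6.58 and 7.28 with RECK, against 6.37 and 6.46 with vector. Over both lines the differences were 1.36 for IL1B, 0.95 for INHBA and 0.81 for WNT5A. Without both arrays that deviate together, the IL1B difference was 1.49. The value for WNT5A was 0.50 without the first MDAMB231 vector array.

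BMP2, a bone morphogenetic protein, was separated more evenly, at 7.40 and 7.55 in MDAMB231 with RECK, against 6.38 and 7.03 with vector. Its LM24175 values were 7.90 and 8.21 with RECK, against a mean of 7.02 ± 0.03 with vector (SD, n = 2). SPP1, or osteopontin, a secreted phosphoprotein that binds integrins, read 7.91 and 7.95 in MDAMB231 with RECK, against 7.80 and 6.53 with vector. In LM24175 SPP1 read 6.27 and 6.09 with RECK, against 5.20 and 5.33 with vector. The differences were 0.90 for BMP2 (adjusted p = 0.101 with 4 group means and 0.00383 with 16 arrays) and 0.84 for SPP1 (adjusted p = 0.0571 with 16 arrays). SPINK1, a secreted trypsin inhibitor, differed by 0.80, and by 0.52 without the second LM24175 RECK array. In MDAMB231 it read 5.305 and 5.291 with RECK, against 4.313 and 5.288 with vector, so it was barely separated there. The first MDAMB231 vector value and both LM24175 vector values of SPINK1 lay below the lower quartile of their array.

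SSX1 and ENPP2 were separated by wide margins in both lines. SSX1, a cancer-testis antigen normally expressed in the testis, read 6.74 and 6.72 in MDAMB231 with RECK, against 4.75 and 5.46 with vector. In LM24175 it read 5.26 and 5.03 with RECK, against 3.75 and 4.05 with vector, and both of these vector values lay below the lower quartile. Its probe set may also take up transcripts of other SSX genes, which are close copies. The SSX1 difference was 1.44 (SE 0.16, 95% interval 1.06 to 1.81; adjusted p = 0.0976). It was 1.20 without both arrays that deviate together. With array weights or without the first MDAMB231 vector array it passed (adjusted p = 0.0305 and 0.0409). ENPP2 encodes autotaxin, the secreted enzyme that makes lysophosphatidic acid. It read 4.85 and 4.77 in MDAMB231 with RECK, against 3.93 and 3.99 with vector, and 7.22 and 7.67 in LM24175 with RECK, against 5.85 and 5.71 with vector. Both MDAMB231 vector values of ENPP2 lay below the lower quartile of their array. Only 1 of its 2 probe sets was separated in both lines, and the mean of its probe sets differed by 0.93. The ENPP2 difference was 1.26, with 1.66 in LM24175 and 0.85 in MDAMB231 (SE 0.17; adjusted p = 0.268, and 0.0318 with 4 group means).

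SCG5, a chaperone of a prohormone-cutting enzyme, differed by 1.07, with 1.05 in MDAMB231 and 1.08 in LM24175. The near equality of the lines depends on the arrays that deviate together. The first MDAMB231 vector array read 8.66 for SCG5, against 9.31 on the second. The first LM24175 RECK array read 10.57, against 11.51 on the second. Without both first arrays, the SCG5 difference is smaller in MDAMB231 and larger in LM24175. PTPRN2, a protein of dense-core secretory granules, differed by 0.73, with 0.93 and 0.53, and TENM1, a teneurin of neural membranes, by 1.02, with 0.38 and 1.66. RTN1, a reticulon of the endoplasmic reticulum, differed by 0.99, but by 1.73 in LM24175 against 0.25 in MDAMB231 (difference between the lines 1.48; adjusted p = 0.0479). On RTN1's other, slightly brighter probe set the difference over both lines was 0.37, and the responses of the lines did not pass as different (adjusted p = 0.172). The remaining 4 were the annexin ANXA10 (0.86), the sialyltransferase ST6GALNAC5 (0.86), the TEAD cofactor VGLL3 (0.76) and FGF13, an intracellular FGF homologue that binds sodium channels (0.75). For 15 of the 20 higher genes the response was larger in LM24175. In all 9 genes with several probe sets, the difference over both lines had the same sign on each of them. This count does not look at each line by itself, and COL1A2's brighter probe set was not separated in MDAMB231.

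**Figure D2:**
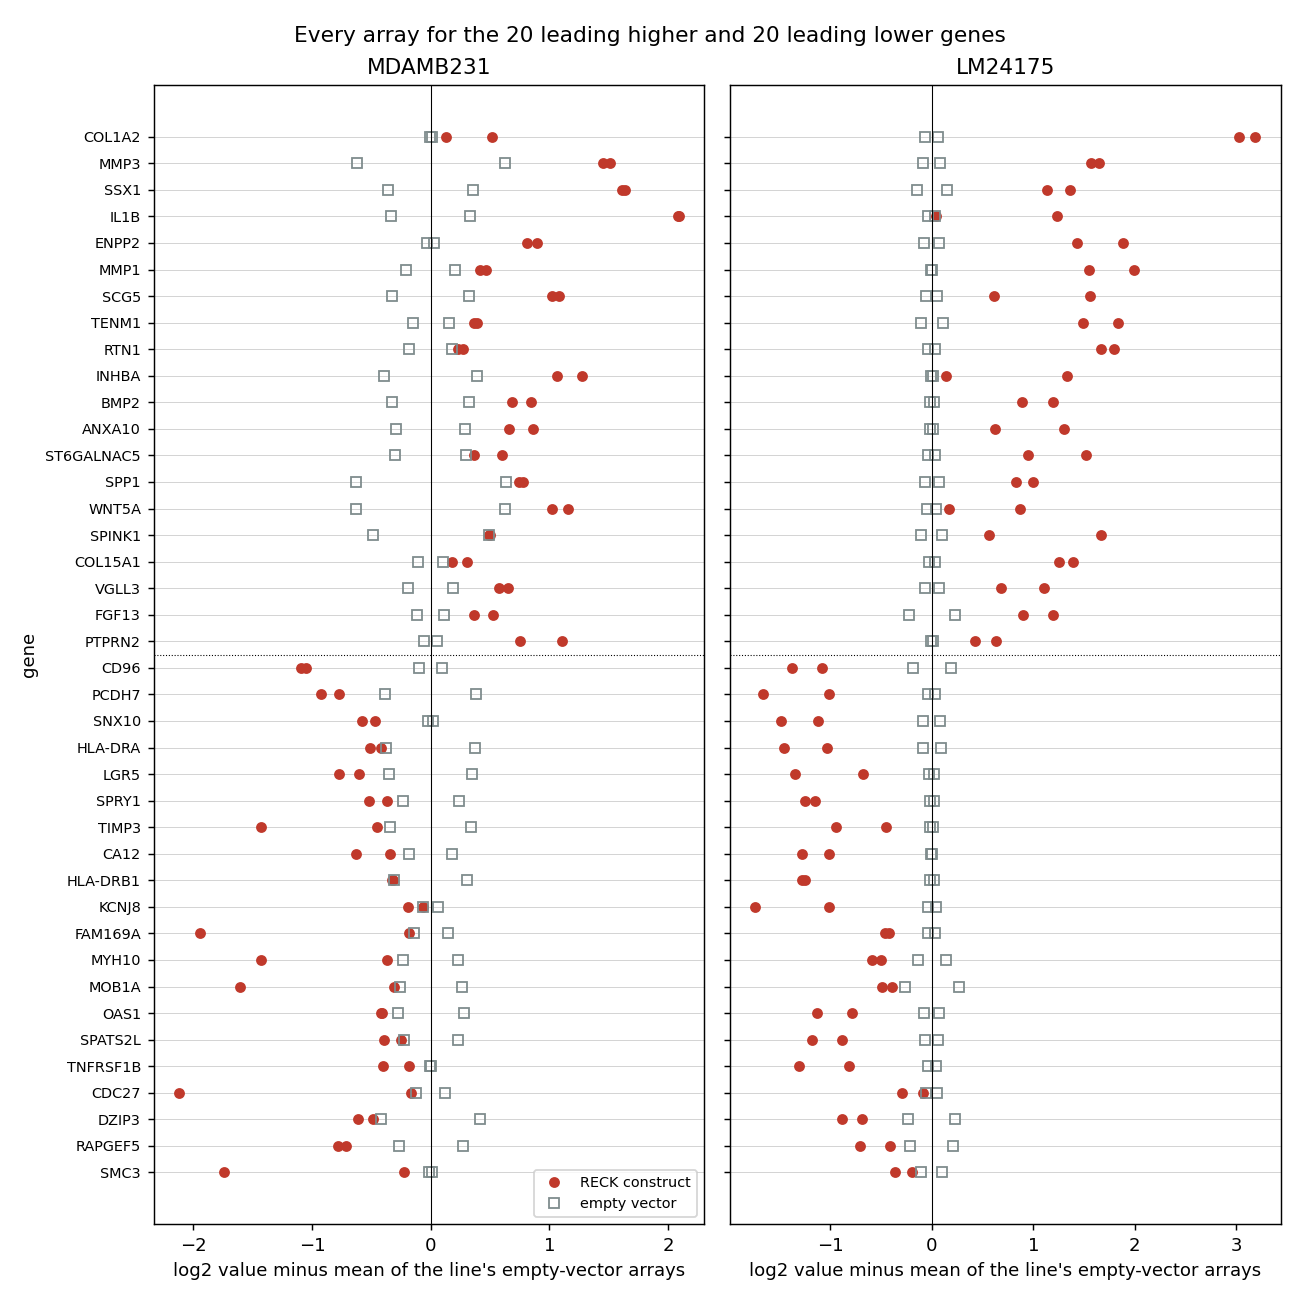
Each row is 1 of the 20 leading higher genes (above the dotted line) or 20 leading lower genes (below it), and each symbol is 1 array, plotted as its log2 value minus the mean of the same line's 2 vector arrays (x axis), for MDAMB231 (left) and LM24175 (right). Red circles are RECK arrays and open squares vector arrays. In every row both circles lie on the same side of both squares, because the genes were chosen for this. COL1A2 stands at 3.11 in LM24175 against 0.32 in MDAMB231, and in several lower genes 1 MDAMB231 RECK array lies far to the left.

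CD96 came closest to a shared difference. It encodes an immunoglobulin-like receptor known from T and NK cells. It read 6.09 and 6.04 in MDAMB231 with RECK, against 7.23 and 7.04 with vector. In LM24175 CD96 read 5.04 and 5.33 with RECK, against 6.60 and 6.22 with vector. The gap between the groups was wider than the spread of either in both lines, and the responses were -1.23 in LM24175 and -1.07 in MDAMB231 (difference -0.16, 95% interval -0.68 to 0.35). The difference over both lines was -1.15 (SE 0.11, 95% interval -1.40 to -0.90; adjusted p = 0.0779), and it stayed between -1.21 and -1.06 with any 1 array left out. Tested with 1 probe set a gene, which lowers the number of tests to 11963, CD96 was the only gene to pass (adjusted p = 0.0445). The 15 leukocyte markers averaged 4.79 to 4.81 on RECK arrays, against 4.79 to 4.84 on vector arrays, and PTPRC, the pan-leukocyte marker CD45, read 3.07 to 3.38 over the 8 arrays.

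HLA-DRA, the alpha chain of the class II molecule HLA-DR, read 8.61 and 9.04 in LM24175 with RECK, against 9.98 and 10.16 with vector. In MDAMB231 HLA-DRA read 10.98 and 11.07 with RECK, against 11.12 and 11.87 with vector, a narrow separation. HLA-DRB1, its partner chain, differed by -0.32 in MDAMB231 and by -1.26 in LM24175, on a probe set that may also take up other DRB genes. In MDAMB231 HLA-DRB1 read 10.73 and 10.74 with RECK, against 10.75 and 11.36 with vector, also a narrow separation. OAS1, an interferon-induced sensor of double-stranded RNA, differed by -0.69 over both lines. The receptor gene TNFRSF1B (TNF receptor 2) differed by -0.68.

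PCDH7, a protocadherin, read 5.81 and 5.96 in MDAMB231 with RECK, against 7.11 and 6.35 with vector. Its LM24175 values were 7.51 and 6.85 with RECK, against 8.55 and 8.48 with vector. The PCDH7 difference over both lines was -1.09 (adjusted p = 0.479, 0.126 with 4 group means and 0.00781 with 16 arrays). Only 1 of its 4 probe sets was separated in both lines. SPRY1, a Sprouty inhibitor of growth factor signalling, differed by -0.82, and LGR5, an R-spondin receptor, by -0.85. SNX10, an endosomal sorting nexin, differed by -0.91 (adjusted p = 0.0323 with 4 group means). CA12, a membrane carbonic anhydrase, differed by -0.81, and 4 of its 6 probe sets were separated downwards in both lines. KCNJ8, a potassium channel subunit, differed by -0.75, but its values of 3.25 to 3.50 in MDAMB231 lay below the lower quartile, and the difference was -0.48 without the second LM24175 RECK array. The last of these were SPATS2L (-0.68), the ubiquitin ligase gene DZIP3 (-0.67) and RAPGEF5, an exchange factor for Rap GTPases (-0.65). On their brightest probe sets the differences were smaller for KCNJ8 (-0.41), DZIP3 (-0.43) and SPATS2L (-0.13).

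In the remaining 6 lower genes the first MDAMB231 RECK array was the lowest of its line, and the differences were smaller without it. CDC27, a subunit of the anaphase-promoting complex, read 9.16 and 11.12 in MDAMB231 with RECK, against 11.16 and 11.40 with vector. In LM24175 it read 11.08 and 10.87 with RECK, against 11.11 and 11.22 with vector. Without the first MDAMB231 RECK array the CDC27 difference was -0.18 instead of -0.67. Without it the difference was -0.26 instead of -0.63 for SMC3 (a cohesin subunit), -0.34 instead of -0.75 for FAM169A, -0.39 instead of -0.70 for MOB1A (a Hippo pathway adaptor) and -0.47 instead of -0.72 for MYH10 (nonmuscle myosin IIB). TIMP3, a matrix-bound inhibitor of metalloproteinases, moved least, at -0.60 instead of -0.82. Several of these genes also had smaller differences on their brightest probe set, at -0.49 for TIMP3, -0.27 for MYH10, -0.13 for SMC3, -0.081 for MOB1A and -0.011 for CDC27. Of the 4 TIMP3 probe sets, the one given here was separated in both lines and the others were not.

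**Figure D3:**
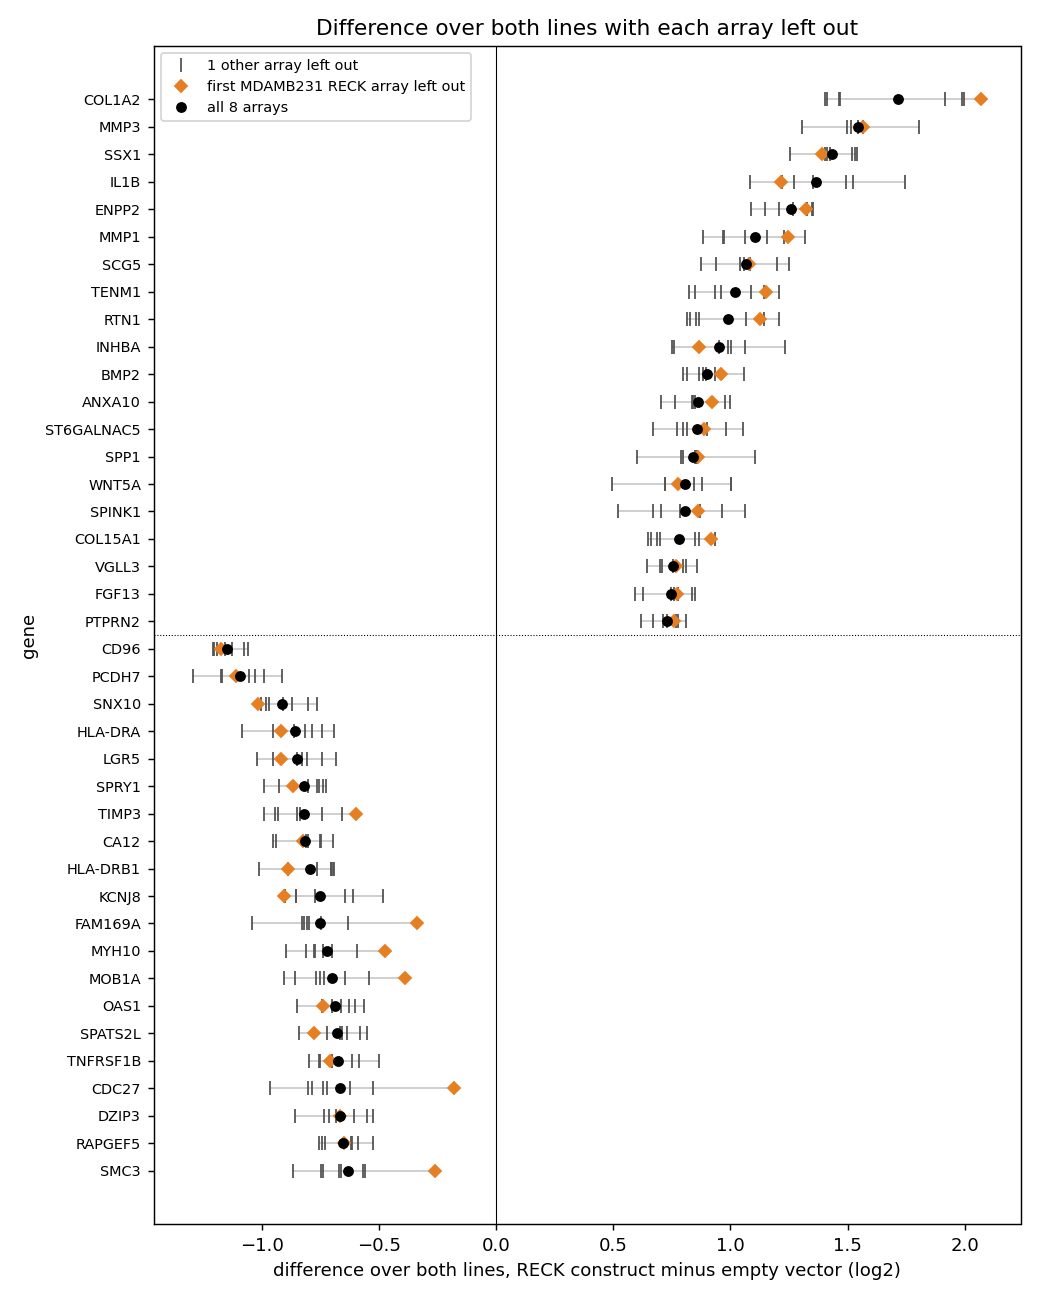
For each of the 40 leading genes, the black point is the RECK minus vector difference over both lines (log2, x axis) from all 8 arrays, the orange diamond the value without the first MDAMB231 RECK array, and the ticks the values with each other array left out. No gene can change sign here, because the genes were chosen with both RECK arrays beyond both vector arrays in each line. The diamonds of TIMP3, FAM169A, MYH10, MOB1A, CDC27 and SMC3 lie nearest to 0 of all their marks.

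The promoters of these genes were searched for the GAS element TTCNNNGAA, the palindrome that STAT factors bind, because STAT3 is named in the study's title. The search covered 250 bases before to 50 bases after each gene's start, on both strands, in RefSeq promoters of GRCh38.p14, and 14 of the 20 higher and 18 of the 20 lower genes had one there. The letters occurred in 7.88% of 27305 promoters. Among the leading genes they occurred in 3 of 14 higher (IL1B, SPINK1 and RTN1) and 2 of 18 lower (CD96 and OAS1). A match is a description of the letters and not a bound site. The promoters of CD96, the gene nearest to passing, of IL1B, a cytokine among the higher genes, and of OAS1, the interferon gene among the lower ones, are printed 5′ to 3′ with the GAS letters in capitals.
CD96, chr3:111541947-111542246, plus strand: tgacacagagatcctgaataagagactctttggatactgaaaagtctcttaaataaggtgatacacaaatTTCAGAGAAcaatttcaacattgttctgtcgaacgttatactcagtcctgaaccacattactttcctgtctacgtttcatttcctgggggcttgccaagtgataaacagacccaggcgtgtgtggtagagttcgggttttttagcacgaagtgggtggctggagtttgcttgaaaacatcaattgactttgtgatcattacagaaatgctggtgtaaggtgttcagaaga
IL1B, chr2:112836730-112837029, minus strand: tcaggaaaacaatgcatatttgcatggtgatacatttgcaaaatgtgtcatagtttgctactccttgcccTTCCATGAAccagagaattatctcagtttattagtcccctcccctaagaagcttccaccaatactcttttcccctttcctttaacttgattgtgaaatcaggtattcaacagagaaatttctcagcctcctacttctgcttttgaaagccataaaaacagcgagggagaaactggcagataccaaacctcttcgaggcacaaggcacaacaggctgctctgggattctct
OAS1, chr12:112906712-112907011, plus strand: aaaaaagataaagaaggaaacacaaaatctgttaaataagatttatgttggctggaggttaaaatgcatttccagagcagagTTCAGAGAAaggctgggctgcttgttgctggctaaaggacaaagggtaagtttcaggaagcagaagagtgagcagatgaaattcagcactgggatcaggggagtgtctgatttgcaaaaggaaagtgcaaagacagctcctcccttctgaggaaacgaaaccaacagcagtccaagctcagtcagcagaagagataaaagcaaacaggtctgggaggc
The other searches gave fewer matches. The AP-1 letters TGANTCA (7.76% of promoters) were found in SNX10 alone. An SREBP element, TCACNCCAC (1.15%), was found in WNT5A alone. The NF-kB motif (1.41%) and the C/EBP-ATF letters TGATGNAA (3.67%) were in none of these promoters.

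Gene lists were described by how many of their measured genes had both RECK arrays beyond both vector arrays the same way in each line. This held for 4.61% of all 11963 genes in the higher and 3.18% in the lower direction, and no member of any list passed in the blocked fit. The members named from lists were singled out after their values were seen. Among the metalloproteinases, ADAMTS proteases and their inhibitors, 4 of 26 were separated upwards and none downwards (median difference 0.04, against 0.003 over all genes). Lists read the brightest probe set of a gene, on which TIMP3 was not separated. The 4 separated upwards were MMP3, MMP1, MMP9 and ADAMTS1. MMP9, the gelatinase that RECK is known to inhibit, read 7.20 and 7.15 in MDAMB231 with RECK, against 6.92 and 6.88 with vector. In LM24175 MMP9 read 7.55 and 7.57 with RECK, against 6.38 and 6.55 with vector. The MMP9 difference over both lines was 0.69 (adjusted p = 0.479, 0.0323 with 4 group means and 0.0647 with 16 arrays). ADAMTS1, a secreted protease that cuts proteoglycans, read 10.39 and 10.28 in MDAMB231 with RECK, against 10.12 and 9.78 with vector. Its LM24175 values were 7.85 and 7.34 with RECK, against 6.63 and 6.53 with vector. Of 8 plasminogen activation genes, SERPINE2, an inhibitor of thrombin and plasminogen activators, was the one separated, at 0.43.

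Lung metastasis genes, the list on which LM24175 is known to differ from its parent, had 5 of 22 separated upwards and 1 downwards. The list did not rise as a whole. Its median difference was 0.036 over both lines, with 0.036 in MDAMB231 and -0.17 in LM24175, and 8 genes were higher and 7 lower in both lines. SPARC, a matricellular glycoprotein, read 4.70 and 4.89 in MDAMB231 with RECK, against 4.48 and 4.03 with vector. In LM24175 SPARC read 12.05 and 12.46 with RECK, against 11.74 and 11.67 with vector. The differences were 0.55 in LM24175 and 0.54 in MDAMB231, at levels that differed widely between the lines. Both MDAMB231 vector values of SPARC lay below the lower quartile of their array, and the RECK values were not far above it. ANGPTL4, an angiopoietin-like protein, was higher by 0.31 and 0.30, EREG, an EGF receptor ligand, by 0.25 and 0.27, and ROBO1, a guidance receptor, by 0.20 and 0.13, and MMP1 was the fifth. IL13RA2, the decoy receptor for interleukin-13, differed by -0.38 and -0.63.

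Factors that promote vessel growth were separated upwards in 6 of 45 cases and downwards in 1. The 6 were IL1B, SPP1, ANGPTL4, EREG, FGF2 and PDGFC, and the one lower was FGF1. FGF2, basic fibroblast growth factor, differed by 0.47, on arrays that were mostly below their lower quartile. Among 18 factors that oppose vessel growth, ADAMTS1 and SPARC were separated upwards and THBS1, thrombospondin-1, downwards (-0.16). VEGFA, the main vessel growth factor, differed by -0.05 (95% interval -0.64 to 0.53) with -0.40 in LM24175 against 0.29 in MDAMB231.

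The IL-6 and STAT3 genes showed little common movement. STAT3 read 9.91 and 10.09 in MDAMB231 with RECK, against 9.92 and 10.12 with vector, and 10.07 and 10.10 in LM24175 with RECK, against 10.13 and 10.27 with vector. Its difference was -0.06 (95% interval -0.25 to 0.12), so a change in STAT3 transcript of over 0.25 in size lies outside that interval. IL6 differed by 0.25 (95% interval -0.38 to 0.88) and its receptor subunit IL6ST by 0.04 (95% interval -0.16 to 0.23). Of 22 genes of the IL-6, JAK and STAT3 pathway, the kinase gene JAK1 was separated upwards (0.31) and SOCS2, a cytokine feedback inhibitor, downwards (-0.42). Of 33 STAT3 target genes, MMP9 was separated upwards and FAS (-0.35) and BIRC5 (-0.15) downwards. The chemokine CXCL8 differed by 0.45 with intervals that span 0 (-0.31 to 1.21), from 1.19 in MDAMB231 and -0.29 in LM24175. PLAU (urokinase) differed by -0.23, MMP2 by -0.30 and MMP14 by 0.24, each with an interval that spans 0. With each array left out, CXCL8 ran from 0.11 (without the first MDAMB231 vector array) to 0.75 (without the first LM24175 RECK array), PLAU from -0.45 to -0.055 and MMP2 from -0.44 to -0.14.

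Genes of other pathways were separated in small numbers. TGF-beta and BMP genes had 3 of 27 upwards (BMP2, INHBA and the pseudoreceptor BAMBI, 0.49). Cholesterol and lipid synthesis genes had EBP and NSDHL upwards and HSD17B7 downwards among 24, and their median was -0.47 in LM24175 against 0.33 in MDAMB231. Hypoxia and glycolysis genes had 5 of 32 downwards, with P4HA2, a collagen prolyl hydroxylase, at -0.43 and TPI1 at -0.21 as the largest, and 1 upwards. Of 17 cancer-testis genes, SPANXB1 (0.65) joined SSX1. Of 27 epithelial-mesenchymal genes, the epithelial adhesion genes EPCAM (-0.49) and OCLN (-0.53) were downwards. The chaperone genes HSPB8 (-0.60) and HSPA4 (-0.28) were downwards among 14 heat shock genes, and of 13 p53 targets, GADD45A and ZMAT3 were upwards and FAS and DDB2 downwards. Of 42 matrix genes, SPARC, COL8A1 (0.53) and LAMB3 (0.28) were upwards and BGN, LAMA4 and THBS1 downwards. Counts upwards and downwards were 2 and 0 of 28 NF-kB and inflammatory genes, 2 and 1 of 23 immediate early genes, 1 and 2 of 39 interferon-stimulated genes and 1 and 1 of 25 integrin and adhesion genes. They were 0 and 1 of 15 MHC genes, and 0 and 11 without both deviating arrays, against 15.3% and 14.3% of all genes in that setting. The MHC genes lower in both lines numbered 8 with all arrays and 12 without those. Counts were 1 and 0 of 16 autotaxin pathway genes, 1 and 0 of 14 RECK partners, and 0 and 0 of 24 oxidative stress and metallothionein and of 16 S100 genes.

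Cell cycle genes had small negative median differences in both lines, but single members went either way. CDC25B and CDC20 differed by 0.54 and 0.51 in LM24175, and TOP2A by -1.01 in MDAMB231 and 0.09 in LM24175. Of 60 measured, 0 were separated upwards and 10 downwards, and 32 had a negative difference in each line, as 2604 of all 11963 genes had (median -0.12, with -0.16 in MDAMB231 and -0.08 in LM24175). The 10 were MCM2, MCM3, MCM4 and MCM5 of the replicative helicase, its partners CDC45 and GINS2, the origin factor ORC6, the kinase CDK2, thymidine kinase TK1 and survivin (BIRC5). MCM5 read 9.45 and 9.37 in MDAMB231 with RECK, against 9.76 and 9.50 with vector, and 9.59 and 9.46 in LM24175 with RECK, against 9.75 and 9.75 with vector. MCM3 differed by -0.16 and -0.32. Differences in the 10 genes were thus small and close to each other, from -0.25 for GINS2 to -0.09 for CDK2. Without both arrays that deviate together, 18 of 60 were separated downwards and 4 upwards, against 14.3% and 15.3% of all genes, and the MDAMB231 median was 0.01.

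Genes of the ATF4 amino acid response and of the unfolded protein response had positive differences in MDAMB231, and on balance in LM24175 too where the deviating arrays were left out. Of 38 measured, 3 were separated upwards with all arrays: the transcription factor ATF3 (0.51), PSPH of serine synthesis (0.24) and the glutamine transporter SLC1A5 (0.39). The list's median was 0.51 in MDAMB231 and 0.04 in LM24175, and 24 of 38 were positive in both, as were 2892 of all 11963 genes. Without both arrays that deviate together, the medians were 0.29 and 0.23, and 25 of 38 (65.8%) were separated upwards and 1 downwards, against 15.3% and 14.3% of all genes. ASNS (asparagine synthetase) then differed by 0.86 in MDAMB231 and 0.46 in LM24175, against 1.10 and 0.04 with all arrays. TRIB3, a pseudokinase induced by ATF4, then differed by 0.71 and 0.97, and PHGDH, the first enzyme of serine synthesis, by 0.63 and 0.56. That setting leaves 1 array in each of 2 groups, and leaving out these arrays moves both lines' values by construction. Leaving out the second arrays of these 2 groups instead, which was not tried, would move the values the other way. Neither list was tested.

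**Figure D4:**
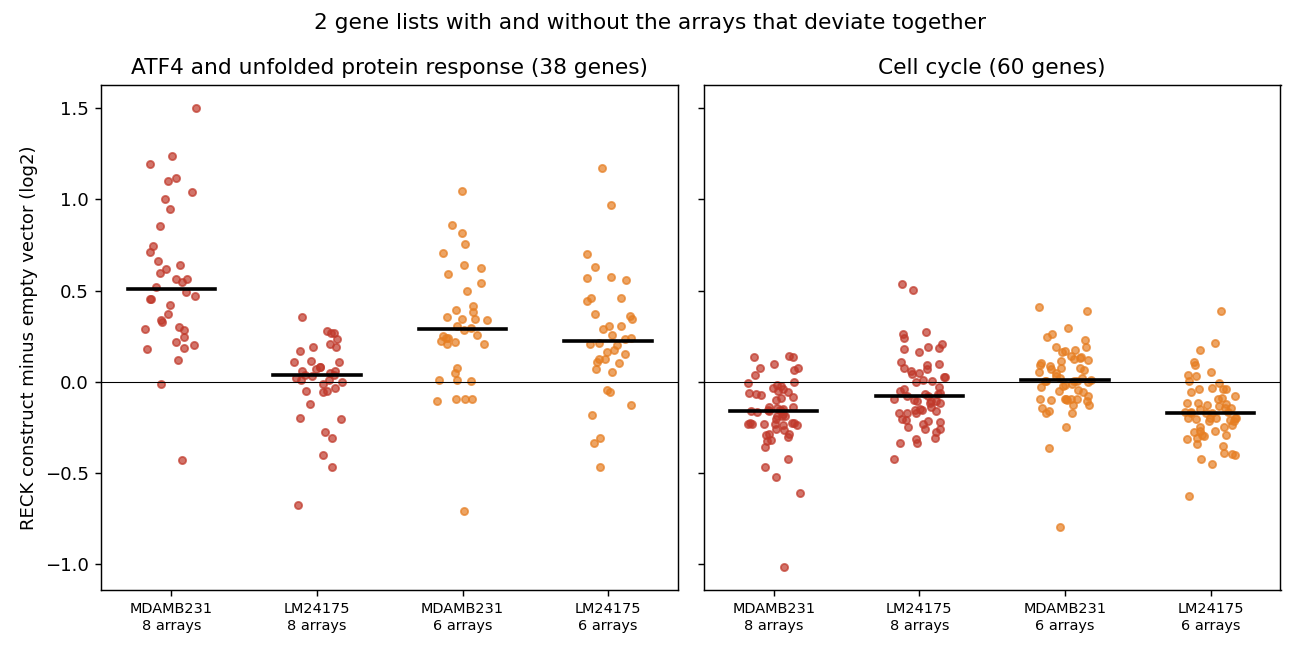
Each point is 1 gene, placed by its RECK minus vector difference (log2, y axis) in MDAMB231 or LM24175, for the 38 ATF4 and unfolded protein response genes (left) and the 60 cell cycle genes (right); black bars are medians. Red points use all 8 arrays and orange points the 6 left without the first MDAMB231 vector and first LM24175 RECK arrays. The ATF4 medians are 0.51 and 0.04 with 8 arrays and 0.29 and 0.23 with 6, and the cell cycle medians -0.16 and -0.08 with 8 and 0.01 and -0.17 with 6.

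Each line was also tested by itself with 4 group means. In MDAMB231, 0 probe sets passed (1783 had an unadjusted p under 0.05), and in LM24175, 308 passed (1.39%), 175 higher and 133 lower. The responses differed between the lines for 25 probe sets (0.113%), and for 581 (2.62%) with 16 arrays. Leaving out the second MDAMB231 RECK array brought the count in MDAMB231 to 199, and leaving out either LM24175 vector array brought that in LM24175 to 1. Without both deviating arrays, 95 passed in LM24175 and 0 differed between the lines. Beside COL1A2 and RTN1, the named genes that differed had responses of opposite sign or in LM24175 alone. SCD, the stearoyl-CoA desaturase of fatty acid synthesis, read 7.60 and 7.56 in MDAMB231 with RECK, against 6.66 and 6.85 with vector, and 6.49 and 6.34 in LM24175 with RECK, against 7.30 and 7.17 with vector. CYP24A1, which breaks down vitamin D, read 5.88 and 5.88 in MDAMB231 with RECK, against 6.61 and 6.64 with vector, and 8.44 and 8.24 in LM24175 with RECK, against 7.21 and 7.47 with vector. SCD was thus higher with RECK in MDAMB231 and lower in LM24175, and CYP24A1 went the other way.

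The leading genes were also read in the siRNA lines. On arrays labelled siRECK against those labelled siSCR, 2 of the 20 higher genes were higher and 3 were lower in Hs343T, where 24.7% of all probe sets passed, and 0 were higher and 2 lower in Hs606T, where 0.846% did. Of the 20 lower genes, 2 were higher and 0 lower in Hs343T, and 1 was higher and 0 lower in Hs606T. RECK went against those labels, at 5.48 in Hs343T and 2.40 in Hs606T, so these directions are those of the labels only. IL1B, higher with the construct, had differences of -1.01 in Hs343T (adjusted p = 0.0218) and -1.43 in Hs606T (adjusted p = 0.0454). OAS1, lower with the construct, had differences of 6.92 and 2.12 (adjusted p = 1.39e-10 and 0.000288).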

How the data were processed

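The deposited values are log2 levels of probe sets, for which the authors used Partek, per the submitters' processing notes. How they summarised and scaled the probes is not stated in the labels, and the log base was taken from the range of the values. Detection calls were not used. Probe sets were named through the platform annotation: 19064 had 1 symbol, 1043 several and 2108 none listed, and 19052 of the 19064 matched RefSeq by gene identifier. Probe sets other than those with 1 symbol were tested but not named.

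All 22215 probe sets were fitted with limma 3.58.1 in R 4.3.3 (lmFit, eBayes), cell line as a block (5 residual and 3.70 prior degrees of freedom; the median of the residual SDs was 0.140). Tests were 2-sided, adjusted by Benjamini and Hochberg over all probe sets, and an adjusted p under 0.05 passed. A fit of 4 group means gave each line and the difference between the lines. The number of arrays limits precision. Equal replicate numbers were not taken as pairs, since 5 of 6 same-number pairs of groups did not deviate together. A gene of a list was read from whichever of its probe sets had the highest 16-array mean. The members, lists, motifs and tests were chosen with earlier results of these data known. By the rule for named genes, the text gives RECK, the 20 largest differences in each direction (here the largest separated ones, as none passed), 10 genes of the STAT3 and invasion question and 8 genes that differ between the lines. The fit was also run on simulated data with independent noise between arrays and equal changes in both lines. That setting differs from these data, so it is no measure of how the fit performs on them. Further software was matplotlib 3.10.9, numpy 2.4.6 and pandas 2.3.3 under Python 3.11.15.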

Additional observations from a re-analysis of the deposited data

Results flagged for a closer look

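The values in this paragraph are construct responses in LM24175 minus those in MDAMB231 that passed the test of that difference with 4 group means, among named genes. COL1A2 (2.78) and RTN1 (1.48) are also leading higher genes. CST6, a cysteine protease inhibitor, differed by 2.23, from responses of 1.49 in LM24175 and -0.74 in MDAMB231, and CYP24A1 by 1.74. SHANK2, a synaptic scaffold, differed by -2.81, from -2.08 in LM24175 and 0.73 in MDAMB231. It read 4.78 and 5.37 in LM24175 with RECK, against 7.15 and 7.16 with vector. FABP4, a fatty acid binding protein, differed by -1.68, from -1.65 in LM24175 and 0.03 in MDAMB231. The acetylcholine receptor subunit CHRNA1 differed by -1.65, SCD by -1.65 and the semaphorin receptor PLXNC1 by -1.62. Adjusted p for these 9 genes lay between 0.0175 and 0.0479, and none of the 25 probe sets that differed did so without both arrays that deviate together.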

How the results depend on the processing

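The count of 0 probe sets that passed in the blocked fit was also 0 after quantile normalization, after centring, without probe sets of low level, with a 1.5-fold minimum, with the replicate block and without both arrays that deviate together. It was 1 with 1 probe set a gene and 1 with the mean of a gene's probe sets (CD96 each time), 2 with trend and robust shrinkage, 3 with array weights, 16 with 4 group means and 337 with 16 arrays. Of these, 1, 1, 2, 3, 15 and 281 moved the same way in each line. It ran from 0 to 2 with each array left out, and so did the count moving the same way: SSX1 and SIDT1 passed without MDAMB231_EV 1, MMP3 (adjusted p = 0.0163) without MDAMB231_EV 2, and 2 probe sets without 1 symbol without LM24175_RECK 1. The 16-array fit has more residual degrees of freedom and keeps the difference between the lines out of its error. What else moves the count was not tested.

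The 1638 separated probe sets were 932 genes by 1 probe set each and 917 by means. With each array left out they numbered 2396 to 3628, and 6274 without both deviating arrays, where fewer arrays have to lie apart. The replicate block gave 315 in LM24175 (against 308), 0 in MDAMB231 and 24 for the difference between the lines (against 25). With 16 arrays these counts were 980, 53 and 581. Without both deviating arrays, an alternative added after the data were seen, they were 95 in LM24175, 0 in MDAMB231 and 0 for the difference. With each array left out, they ran from 1 to 439 in LM24175, from 0 to 199 in MDAMB231 and from 0 to 143 for the difference (leaving out an array also lowers the residual degrees of freedom). The LM24175 count was 41 without either MDAMB231_RECK array, 22 and 100 without LM24175_RECK 1 and 2, and 1 without either LM24175_EV array.

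Signs turned in genes with differences near 0. Without both deviating arrays the third RECK probe set was 0.034, VEGFA 0.017 and SCD -0.082. SCD was also -0.22 with array weights, -0.27 with 1 probe set a gene and -0.13 with the mean of its probe sets, and IL6ST was -0.20 with the mean. With each array left out, the second RECK probe set ran from -0.0016 to 0.042, IL6 from -0.049 to 0.49, IL6ST from -0.013 to 0.093, VEGFA from -0.28 to 0.23, CYP24A1 from -0.10 to 0.31, CHRNA1 from -0.37 to 0.044 and SCD from -0.20 to 0.20. The cause was not tested. None of the 40 leading genes changed sign in any of these settings. Where arrays were left out, this was fixed by how the genes were chosen, with both RECK arrays beyond both vector arrays in each line.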
